A study of Bos taurus with 20 samples.

Results

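Liver gene expression after calving was compared between cows that had eaten a low phosphorus ration (LP) before calving and cows that had eaten an adequate one (AP). The 10 postpartum arrays, 5 LP and 5 AP, are part of 20 arrays from 10 multiparous Holstein-Friesian cows, each biopsied once before and once after calving. The LP ration held 0.16% phosphorus of dry matter and had urea in its concentrate to match nitrogen. The AP ration held 0.35%, with mono-ammoniumphosphate as the supplement, and both were fed for the last 4 weeks of the dry period, at restricted intake. From calving on, LP and AP cows ate the same lactation ration of adequate phosphorus content, so the postpartum samples compare an earlier diet and not a current one. The cows were drawn from a trial of 30, each array holds the RNA of 1 cow, and the sources used here do not give the day of biopsy. The labels do not name the animals, and arrays whose titles share a number were taken to be of 1 cow. The LP cows are called A to E and the AP cows F to J. All 20011 genes that the array's table gives as the single symbol of a probe set were tested, each by its brightest probe set.

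Phosphate is needed for ATP, nucleic acids, phospholipids and the phosphorylated intermediates of glucose metabolism, and the start of milk secretion draws it from blood. The liver of a fresh cow at the same time takes up fatty acids released from body fat, makes glucose from propionate and amino acids, and mounts an acute phase response. Around calving the liver becomes less responsive to growth hormone, and its output of insulin-like growth factor 1 drops until energy balance recovers. The question put to these samples is whether an effect of restricted phosphorus before calving was still seen in the liver once all cows received the same feed.

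Values are log2 signals, so a difference of 1 is a 2-fold difference, and each difference is LP minus AP. The 18 hepatocyte markers, such as those for plasma proteins, averaged between 11.78 and 12.31 per postpartum array, where the array medians over all genes lay between 6.17 and 6.28. The LP array of cow C had the lowest hepatocyte value and stood apart from the rest. Its COL1A1 signal, for a chain of type I collagen, was 13.25, against 6.75 to 8.70 in the other LP cows and 6.86 to 7.27 in AP cows. The 18 measured adipocyte markers of 20 listed averaged 8.80 in cow C, 6.37 to 6.70 in the other LP cows and 6.42 to 6.65 in AP cows. The 19 measured skeletal muscle markers of 20 averaged 7.33 in cow C, 5.12 to 5.46 in the other LP cows and 5.02 to 5.46 in AP cows. The 20 fibroblast and stellate cell markers averaged 10.42 in cow C and 6.63 to 7.30 in the other LP cows, with cow B at the top, and 6.48 to 6.83 in AP cows. In pieces of whole tissue, fewer cells of a type and less RNA per cell cannot be told apart. The array of cow C was set apart by rule, as the LP postpartum array of highest COL1A1 signal. Its high collagen signal is therefore no independent finding. The difference after calving of each gene named in these Results is given with all 10 arrays and again without the array of cow C. Some genes of the closing sections are given by their signals alone.

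**Figure D1:**
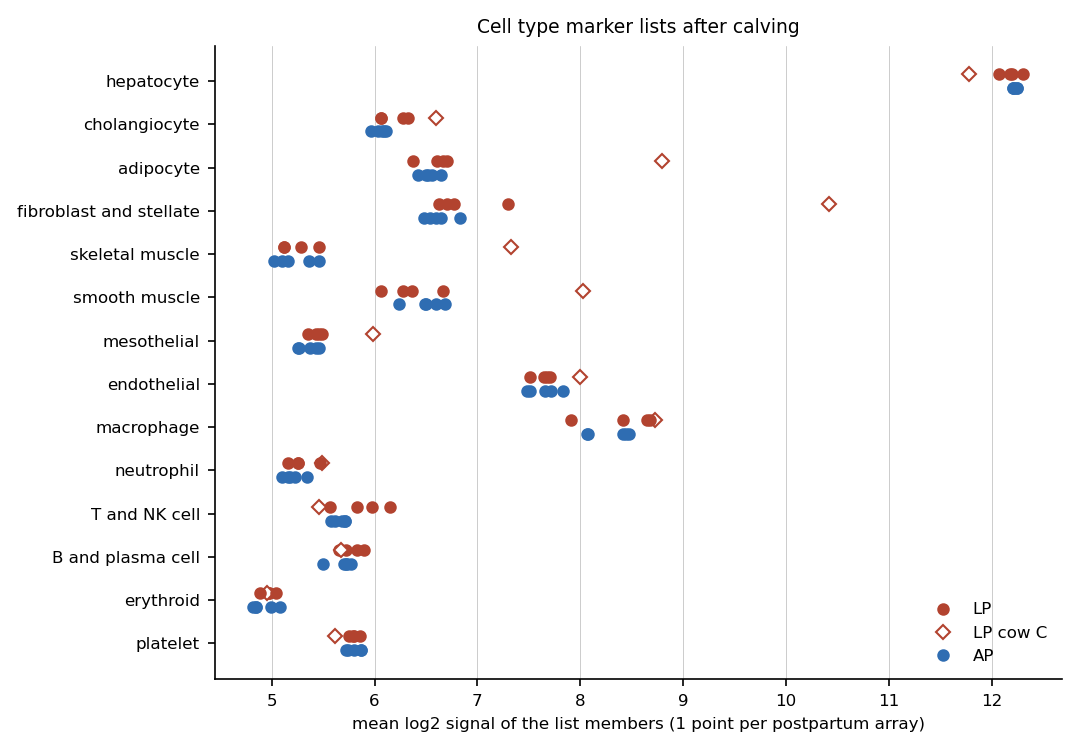
Mean log2 signal of 14 lists of cell type markers on each postpartum array, LP in red and AP in blue, with the LP array of cow C as an open diamond. Cow C lies to the right of the other 9 arrays for adipocyte, fibroblast and stellate, skeletal muscle and smooth muscle markers, and to the left for hepatocyte markers.

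SYT4 was the 1 gene that passed the test, and its signal was 1.78-fold higher in LP cows. It encodes synaptotagmin 4, a vesicle membrane protein best known from neurons and endocrine cells. Its postpartum signal was 8.45, 8.53, 8.76, 8.53 and 8.37 in LP cows A to E, against 7.81, 7.67, 7.41, 7.80 and 7.79 in AP cows F to J. Every LP cow lay above every AP cow, with means of 8.53 ± 0.15 in LP and 7.70 ± 0.17 in AP (SD, n = 5 each). The difference was 0.83 with a standard error of 0.117, and the adjusted p by limma was 0.0105. Without the array of cow C, the LP mean was 8.47 ± 0.08, the difference 0.77 and the adjusted p by limma 0.0396. The gap was of the same size before calving, while the rations still differed, with signals of 8.96, 8.45, 8.59, 8.71 and 8.30 in LP cows A to E against 7.70, 7.76, 7.78, 7.71 and 7.92 in AP cows F to J. That antepartum difference was 0.83 (limma adjusted p = 0.0109), and the change of the difference across calving was 0.00 with a standard error of 0.165. As the titles pair them, the antepartum and postpartum arrays are of the same cows, so a lasting difference between the 10 animals and an effect of the ration cannot be told apart. The table places the SYT4 probe set on chromosome 24 at 12950391 to 12960189, in a genome build that the sources used here do not name. The call was lost when AP cow H was left out (adjusted p by limma 0.0557) and when the fit used the 10 postpartum arrays alone (0.213).

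The 1 gene higher in LP is 0.005% of those tested, and no gene passed as lower in LP (0%). At an unadjusted p under 0.05 by limma, 631 genes were higher in LP (3.15% of those tested) and 501 were lower (2.5%). Together these are 1132 genes, where 5% of the genes tested is 1001. Of the 1132, 55.7% were higher in LP, a share that was 44.9% after quantile normalization and 38.5% after centring each array on its median, so neither direction can be called the more common. Without the array of cow C, 549 were higher (2.74%) and 353 lower (1.76%), and 534 genes were under 0.05 with the same sign in both fits. The 5 LP and 5 AP arrays did not overlap for 83 genes higher in LP (0.415%) and 46 lower (0.23%). Without cow C, 171 higher (0.855%) and 81 lower (0.405%) did not overlap. Groups with fewer arrays are more easily apart, so these counts cannot be set against those of all arrays. SYT4 was the only gene of the 20011 whose LP and AP arrays were apart the same way both before and after calving.

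**Figure D2:**
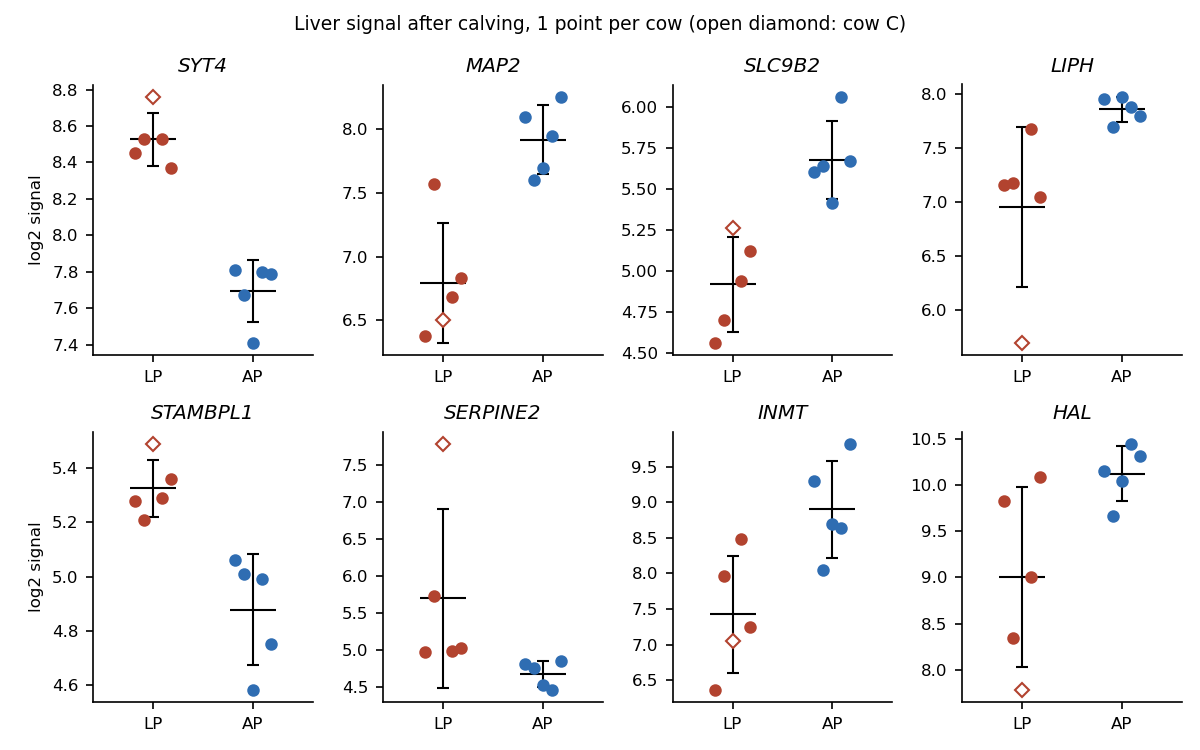
Log2 signal of 8 genes after calving, 1 point per cow, LP left in red and AP right in blue, with the mean and SD of each group (n = 5) as bars and cow C as an open diamond. LP and AP cows do not overlap for SYT4, SLC9B2, STAMBPL1, LIPH, MAP2 and SERPINE2, and they overlap for INMT and HAL.

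None of the genes of low unadjusted p described next passed, with an adjusted p by limma of 0.812 each. MAP2 encodes a microtubule-associated protein known from neuronal dendrites. Its signal was 6.38, 7.57, 6.50, 6.68 and 6.83 in LP cows A to E, against 8.09, 7.60, 7.69, 7.94 and 8.25 in AP cows F to J. LP cow B came close to the lowest AP cow, and the other LP cows were well below it (difference -1.12, SE 0.24, 2.18-fold lower, and -1.05 without cow C). MAP2 was also lower in LP before calving, by a difference of -0.80. SLC9B2 encodes a sodium and proton exchanger. Its signal was 4.56, 4.70, 5.26, 4.94 and 5.12 in LP cows against 5.60, 5.64, 5.41, 6.06 and 5.67 in AP cows, with no overlap (difference -0.76, SE 0.178, and -0.84 without cow C). LIPH, for a lipase that releases lysophosphatidic acid, was 7.16, 7.18, 5.70, 7.68 and 7.05 in LP cows against 7.95, 7.69, 7.97, 7.88 and 7.80 in AP cows. The lowest of these was cow C, and the LIPH difference was -0.90 with that array and -0.59 without it. INMT, which methylates indole amines, was 6.36, 7.97, 7.05, 8.49 and 7.25 in LP cows against 9.30, 8.05, 8.69, 8.64 and 9.82 in AP cows. It had the largest of the negative differences named here (-1.48, SE 0.40, and -1.38 without cow C), but LP cow D lay above AP cow G.

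Other genes of low unadjusted p on the lower side had small and even differences. ELMOD3, for a regulator of small GTPases, differed by -0.34 with cow C and -0.29 without it, and TBP, the TATA box binding protein of transcription initiation, by -0.31 and -0.29, and the LP and AP arrays of both were apart. ZNF397, for a zinc finger protein, differed by -0.32 in both fits and was also apart. SULT2B1, for a sulfotransferase of cholesterol and other sterols, differed by -0.51 and -0.48, and HSD3B1, for a hydroxysteroid dehydrogenase of steroid hormone synthesis, by -0.57 and -0.50, with LP and AP overlapping in both. BCL9, for a cofactor of beta-catenin, overlapped with all arrays (-0.47) and was apart without cow C (-0.61).

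On the higher side, STAMBPL1, for a deubiquitinating enzyme, was 5.28, 5.21, 5.49, 5.29 and 5.36 in LP cows against 5.06, 5.01, 4.58, 4.99 and 4.75 in AP cows. The arrays were apart, by 0.45 with cow C and 0.41 without it. BMP5, for a bone morphogenetic protein, was 5.72, 5.90, 6.03, 5.85 and 5.47 in LP cows against 5.07, 4.86, 4.34, 4.61 and 5.66 in AP cows, where AP cow J overlapped (difference 0.88, SE 0.219, and 0.82 without cow C). PTPRO, for a receptor tyrosine phosphatase, differed by 0.47 with cow C and 0.41 without it, and SLC43A3, for a nucleobase transporter, by 0.49 and 0.35, and both were apart. GPC4, for a glypican of the cell surface, differed by 0.39 and 0.33, and ABCB1, for the efflux pump P-glycoprotein, by 0.53 and 0.45, with overlap. NDST4, for a heparan sulfate enzyme, differed by 0.48 and 0.54 and ESRRB, for an orphan nuclear receptor, by 0.35 and 0.39, and both were apart. Most of these signals are dim, near the lower quartile of the arrays (4.92 to 5.21 over all genes), and no detection call was used.

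Several of the largest differences among genes that were apart were much smaller without cow C. SERPINE2, for a serine protease inhibitor of the extracellular matrix, was 4.97, 5.73, 7.79, 4.99 and 5.03 in LP cows against 4.81, 4.76, 4.53, 4.46 and 4.85 in AP cows. Its difference was 1.02 with cow C and 0.50 without it, and the arrays stayed apart. F3, for the tissue factor that starts coagulation, differed by 0.74 with cow C (7.39 in that cow) and 0.34 without it. MMP9, for a gelatinase, differed by 0.60 and 0.30, and UCK2, for a uridine-cytidine kinase, by 0.54 and 0.30. TDH, for threonine dehydrogenase, was apart and lower in LP by -0.77 with cow C and -0.47 without it. The marker levels of cow C given above move with these differences, and their part in them was not tested.

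IGF1 showed a large difference after calving without passing the test. IGF1 encodes the growth factor that the liver makes under growth hormone, and its signal was 8.48, 10.27, 9.70, 8.06 and 7.75 in LP cows A to E, against 7.45, 7.49, 8.13, 7.62 and 6.99 in AP cows F to J. Cows A, B and C lay above all AP cows, and cows D and E lay within the AP range. The difference was 1.32 (SE 0.364, 2.49-fold, limma unadjusted p = 0.00163 and adjusted p = 0.812), and it was 1.11 without cow C. Before calving IGF1 was 9.02 to 10.22 in LP cows and 10.24 to 10.91 in AP cows, so that every LP cow lay below every AP cow. The change of the difference across calving was 1.97 (SE 0.515, limma unadjusted p = 0.00101 and adjusted p = 1). THRSP, for a protein that promotes fatty acid synthesis and is induced by thyroid hormone and carbohydrate, had a like order of cows. It was 5.92, 7.92, 7.16, 5.57 and 5.02 in LP cows against 4.90, 4.95, 5.14, 4.51 and 4.70 in AP cows, a difference of 1.48 with cow C and 1.27 without it. THRSP is also on the adipocyte list, whose mean was 6.61, 6.70, 8.80, 6.67 and 6.37 in cows A to E. The part of fat in the biopsies in these differences was not tested.

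**Figure D3:**
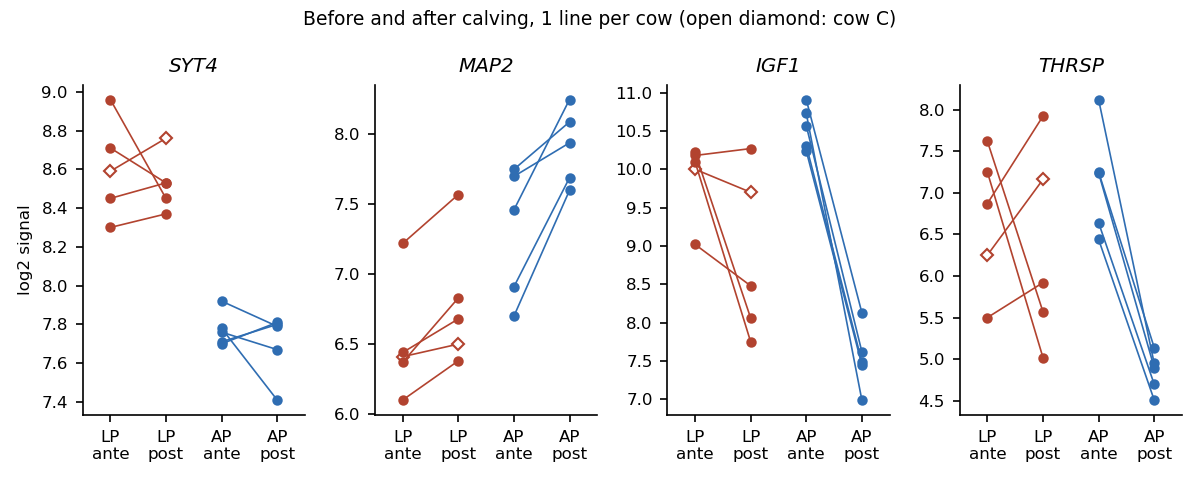
Log2 signal of SYT4, MAP2, IGF1 and THRSP before and after calving, 1 line per cow, LP left in red and AP right in blue, with cow C as an open diamond. SYT4 keeps LP above AP at both times, and the IGF1 lines of the AP cows all drop steeply, as do those of LP cows D and E, while those of cows B and C stay near 10.

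Of the 31 genes measured on the list for growth hormone, IGF and insulin, none passed, 19 were positive and 12 negative, with a median of 0.01 against 0.00 over all genes. IGFALS, for the subunit that stabilises IGF1 in blood, was 8.29, 8.94, 7.49, 7.98 and 7.42 in LP cows against 7.77, 7.16, 7.97, 7.44 and 7.36 in AP cows (0.48, and 0.62 without cow C). GHR, the growth hormone receptor, was 9.70, 10.51, 9.29, 9.89 and 9.58 in LP cows against 9.57, 9.39, 9.78, 9.64 and 9.32 in AP cows (0.25, and 0.38 without cow C). Cow B was the highest of the 10 for both. IGFBP2, an IGF binding protein of fasting liver, differed by -0.51 with cow C and -0.26 without it, and IRS1, the insulin receptor substrate, by -0.45 and -0.28.

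None of the fat and lipoprotein genes passed. Of the 50 genes measured on the list for fatty acid oxidation and targets of the receptor PPARA, 42 were negative with a median of -0.22, and 9 were lower at an unadjusted p under 0.05, as were 2.5% of all genes. Without cow C, 30 were negative with a median of -0.05, and 3 were lower, as were 1.76% of all genes. SLC27A2, for a very long chain acyl-CoA synthetase, was 11.59, 11.55, 10.56, 11.89 and 11.48 in LP cows against 11.85, 11.79, 11.84, 12.02 and 12.09 in AP cows (-0.50, and -0.29 without cow C). CYP4A11, for a fatty acid omega-hydroxylase, differed by -0.75 with cow C and -0.37 without it, and its value in cow C was 8.15 against 9.85 to 10.16 in the other LP cows. UCP3, for a mitochondrial carrier, differed by 0.30, and by 0.34 without cow C, where the arrays were apart. BDH2, for a hydroxybutyrate dehydrogenase, was 8.68, 9.90, 9.23, 9.11 and 8.89 in LP cows against 10.00, 9.85, 9.68, 10.01 and 9.72 in AP cows, and its difference was the same size without cow C (-0.69 and -0.71). It was also lower in LP before calving (-0.48).

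The 24 genes for apolipoproteins and VLDL assembly had a median of -0.22 with cow C and -0.07 without it, and APOC2, the cofactor of lipoprotein lipase, differed by -0.41 and -0.34. The 24 lipid droplet and lipase genes had a median of -0.09 with cow C and -0.11 without it, and MGLL, for monoglyceride lipase, differed by -0.62 and -0.44. LPL, lipoprotein lipase, was 11.12 in cow C, 5.73 to 6.66 in the other LP cows and 5.66 to 6.03 in AP cows, and its difference was 1.34 with cow C and 0.36 without it. The cholesterol synthesis list turned its direction with cow C. With that array 18 of 26 genes were negative with a median of -0.05, and without it 23 were positive with a median of 0.15. That list averaged 9.81, 10.04, 8.70, 9.64 and 9.19 in LP cows A to E and between 9.47 and 9.73 in AP cows, so LP cows lay on both sides of the narrow AP range. SCAP, the sterol-sensing escort protein of the transcription factor SREBP, was apart and lower in LP (-0.22, and -0.23 without cow C). STARD4, for a cholesterol carrier, differed by -0.53 and -0.33. SCARB1, the receptor for high density lipoprotein, differed by -0.39 and -0.29.

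**Figure D4:**
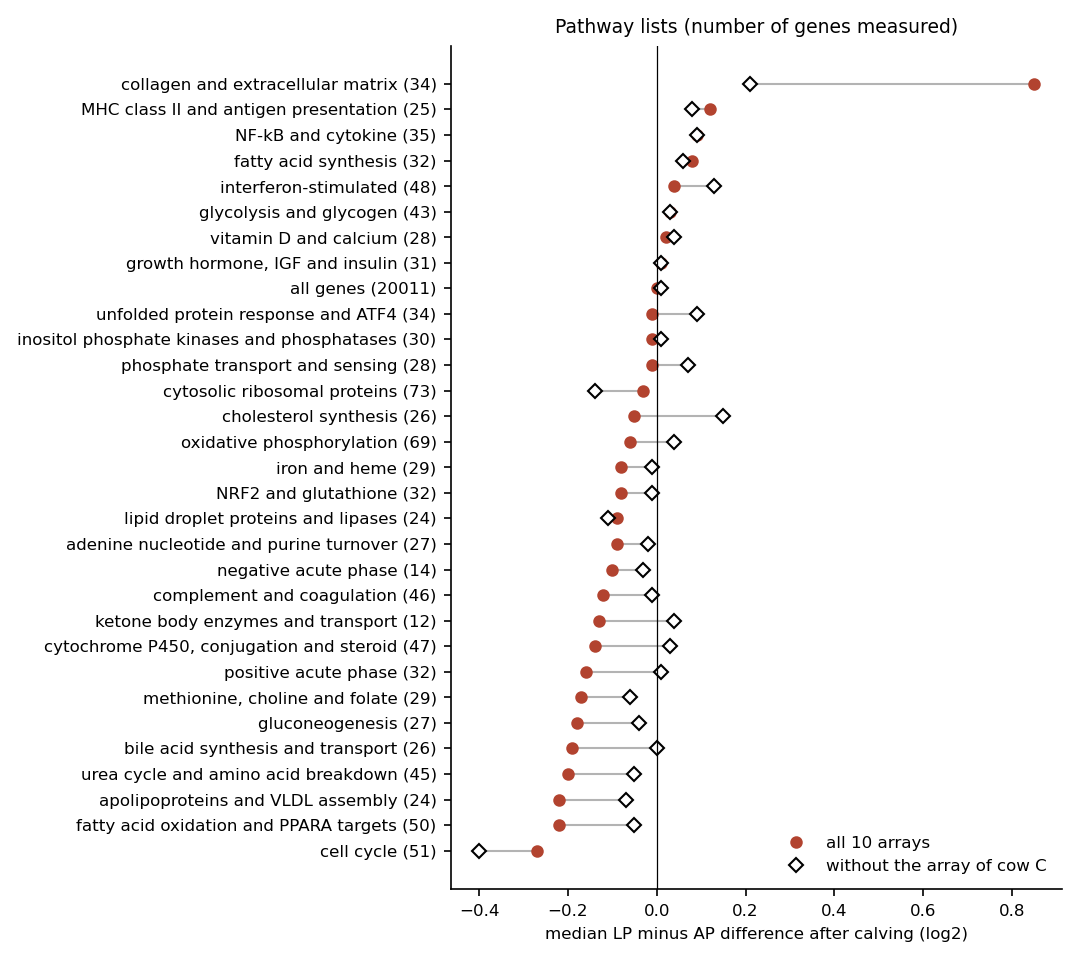
Median LP minus AP difference after calving (log2) of 30 pathway lists and of all 20011 genes, with all 10 arrays (filled) and without the array of cow C (open), with the number of genes measured in brackets. Most medians of liver metabolism lie left of 0 with all arrays and near 0 without cow C, and the cell cycle list is the lowest in both.

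In amino acid and glucose metabolism no gene passed. Of the 45 genes for the urea cycle and amino acid breakdown, 41 were negative with a median of -0.20 with cow C, and 26 with a median of -0.05 without it. HAL, histidine ammonia-lyase, the first enzyme of histidine breakdown, was 9.82, 8.34, 7.78, 9.00 and 10.08 in LP cows against 10.15, 9.66, 10.04, 10.44 and 10.31 in AP cows. Cows B, C and D were below all AP cows and cows A and E were not (difference -1.12, SE 0.381, and -0.81 without cow C). AMDHD1, a later enzyme of the same route, differed by -0.78 and -0.44. The methionine cycle enzymes MAT1A and CBS differed by -0.41 and -0.40 with cow C, and by -0.18 and -0.19 without it. Of the 27 gluconeogenesis genes, 22 were negative with a median of -0.18, and 16 with a median of -0.04 without cow C. PC, pyruvate carboxylase, which starts glucose synthesis from lactate and alanine, was 10.10, 9.08, 8.67, 10.23 and 10.83 in LP cows against 10.61, 9.86, 10.22, 10.40 and 10.96 in AP cows (-0.63, and -0.35 without cow C). The glucagon receptor GCGR differed by -0.36 and -0.19, and the coactivator PPARGC1A by -0.43 and -0.21. Of glycolysis, PFKP, for the platelet form of phosphofructokinase, differed by 0.35 and 0.30, and PKM, for pyruvate kinase of non-hepatic cells, by 0.93 and 0.41. The 47 genes for cytochromes P450, conjugation and steroids had a median of -0.14 with cow C and 0.03 without it. There CYP3A24, a drug and steroid oxidising cytochrome, was 8.60, 9.82, 6.74, 10.14 and 8.91 in LP cows against 9.93, 9.89, 10.26, 9.98 and 10.49 in AP cows (-1.27, and -0.74 without cow C), and FMO1, for a flavin monooxygenase, differed by -0.38 and -0.23.

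Genes that handle phosphate showed small differences. Of the 28 measured on the list for phosphate transport and sensing, none passed, 13 were positive and 15 negative, with a median of -0.01, and without cow C 18 were positive with a median of 0.07. The sodium phosphate importer SLC20A1 was 7.93, 8.07, 8.28, 8.29 and 7.68 in LP cows against 8.30, 8.42, 7.80, 7.81 and 8.51 in AP cows, with full overlap (difference -0.12, SE 0.184, and -0.17 without cow C). Its relative SLC20A2 differed by 0.14 (SE 0.111, and 0.19 without cow C) and the phosphate exporter XPR1 by 0.16 (SE 0.124, and 0.14 without cow C). The importer SLC34A2, at a dim 4.63 to 5.15, differed by -0.09 (SE 0.133, and -0.10 without cow C). ANKH, which exports ATP and citrate and sets extracellular pyrophosphate, was the list's 1 gene at an unadjusted p under 0.05. That count is near the share over all genes, of which 3.15% were higher and 2.5% lower at that level. ANKH was 7.38, 7.21, 7.58, 7.49 and 7.80 in LP cows against 8.15, 8.02, 7.41, 7.80 and 8.14 in AP cows (-0.41, SE 0.18, and -0.43 without cow C), with AP cow H among the LP values. SLC37A4, the glucose 6-phosphate carrier, differed by -0.42 with cow C and -0.20 without it.

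The 30 genes for inositol phosphate metabolism had a median of -0.01 with cow C and 0.01 without it. IMPA2, inositol monophosphatase, differed by -0.36 and -0.24, and INPP5D, an inositol phosphatase of blood cells, by 0.26 and 0.21. Of the 27 purine genes, none passed and 3 were lower at an unadjusted p under 0.05, against 1 without cow C, beside the same 2.5% and 1.76% of all genes. XDH, xanthine dehydrogenase, which makes urate, was 10.06, 9.81, 9.62, 10.33 and 10.14 in LP cows against 10.56, 10.56, 10.35, 10.10 and 10.47 in AP cows (-0.42, and -0.33 without cow C). Before calving it was higher in LP by 0.25, and the change of the difference was -0.67 (limma unadjusted p = 0.00263, adjusted p = 1). IMPDH1, for the enzyme that commits purines to guanine nucleotides, differed by 0.47 and 0.33. On the list for vitamin D and calcium, TRPV6, an epithelial calcium channel, was apart at 5.72, 5.49, 5.53, 5.67 and 5.56 in LP cows against 5.46, 5.27, 5.42, 5.27 and 5.28 in AP cows. Its difference was only 0.25 at a dim signal, and 0.27 without cow C. VDR, the vitamin D receptor, differed by 0.45 with cow C and 0.25 without it.

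Of the immune lists, none held a gene that passed. Among the 32 positive acute phase genes, 23 were negative with a median of -0.16, and 16 with a median of 0.01 without cow C. That list averaged 10.38, 10.26, 10.05, 11.01 and 10.74 in LP cows A to E and 10.47 to 10.84 in AP cows. Cows A, B and C thus lay below all AP cows, and cow D above them. S100A9, a calprotectin subunit, went against most of the list, with differences of 0.37 and 0.30. Of 48 interferon-stimulated genes, 29 were positive with a median of 0.04, and 38 with a median of 0.13 without cow C, but the cows differed among themselves. Cow E had 37 of the 48 above all AP cows and cow D had 27, where 19% and 16.9% of all genes were above in these cows. Cows A, B and C had 5, 3 and 5 above, where 21.9%, 21.3% and 24% of all genes were. Below all AP cows were 11 in cow A, 20 in cow B, 25 in cow C, 2 in cow D and 0 in cow E, where 18.2%, 16.3%, 31.1%, 14.1% and 18.4% of all genes were. MX2, for an antiviral GTPase, was 6.69, 6.46, 6.69, 7.03 and 7.09 in LP cows against 6.34, 6.27, 6.23, 6.30 and 6.75 in AP cows (0.42, and 0.44 without cow C). PSMB8, an immunoproteasome subunit, was higher in LP by 0.28 both after and before calving, and by 0.25 after calving without cow C. TAP2, for a peptide transporter of antigen presentation, differed by 0.35 and 0.34. PTGS2, the inducible cyclooxygenase, was 4.95, 4.87, 5.92, 6.06 and 6.17 in LP cows against 5.21, 4.86, 4.47, 4.48 and 5.11 in AP cows, where cows C, D and E lay above all AP cows (0.77, and 0.69 without cow C). CXCL8, the neutrophil attractant, was 4.80 to 4.97 in LP cows and 4.46 to 4.85 in AP cows (0.31 in both fits). CD86, for a costimulatory protein of antigen presenting cells, differed by 0.45 after calving (0.30 without cow C) and by 0.52 before. The 21 markers of T and NK cells averaged 5.57, 5.83, 5.46, 5.98 and 6.15 in LP cows A to E and 5.58 to 5.71 in AP cows, and 15 of them were positive and 6 negative, with a median of 0.08. With all arrays 1 of these markers was at an unadjusted p under 0.05, where 3.15% of all genes were higher and 2.5% lower. It was CD4, the coreceptor of helper T cells, which was lower in LP (-0.24 in both fits). Without cow C, 3 markers were higher and 1 lower at that level, as were 2.74% and 1.76% of all genes. PRF1, the perforin of cytotoxic lymphocytes, differed by 0.24 after calving (0.33 without cow C) and by 0.47 before. The part of such cells in these differences was not tested.

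Cell cycle genes had the lowest list median, whose size depended on AP cow G. Of 51 measured, 46 were negative with a median of -0.27, and 7 were lower at an unadjusted p under 0.05, as were 2.5% of all genes, with none that passed. Without cow C, again 46 were negative, the median was -0.40 and 16 were lower at that level, as were 1.76% of all genes. The list averaged 5.76, 5.73, 6.07, 5.43 and 5.61 in LP cows, against 5.95, 6.90, 6.31, 5.67 and 5.31 in AP cows. AP cow G was the highest, AP cow J the lowest, and the groups overlapped. Without AP cow G the median was -0.06. AURKA, a mitotic kinase, was 5.36, 5.25, 5.33, 5.23 and 5.15 in LP cows against 5.34, 6.74, 5.96, 5.61 and 5.33 in AP cows (-0.53, and -0.55 without cow C). NUSAP1, a spindle protein, differed by -0.65 with cow C and -0.87 without it, and E2F8, a repressor of the cycle, by -0.39 and -0.40. CKAP2, a spindle protein, differed by -0.71 and -0.97, and PRR11, a cell cycle protein, by -0.73 and -0.98. RMI1, of the complex that resolves DNA crossovers, differed by -0.38 and -0.44. CKAP2 and RMI1 are not on the list, and NUSAP1 and CKAP2 were picked for a low p without cow C. All genes named here are negative, while 5 list members were positive in each fit. Before calving the list's median was 0.05.

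Cytosolic ribosomal protein genes depended on cow C. With that array, 44 of 73 were negative with a median of -0.03 (0.03 after quantile normalization), and without it 68 were negative with a median of -0.14. The list averaged 9.59, 9.46, 9.97, 9.37 and 9.37 in LP cows A to E, against 9.55, 9.85, 9.63, 9.49 and 9.41 in AP cows F to J. In cow D 30 of the 73 and in cow E 31 lay below all AP cows, where 14.1% and 18.4% of all genes did in these cows. In cow C 49 lay above all AP cows, where 24% of all genes did. RPS23 differed by -0.57 and -0.59, and RPS27 by -0.31 and -0.24, both of the small subunit. The RPS23 signal was dim, at 4.01 to 6.10 after calving, far below the list's averages, and was highest in AP cow G.

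The size of the difference in collagen and matrix genes rested on cow C, with cow B next. The array of cow C was set apart for its COL1A1 signal, and COL1A1 is on this list. A smaller difference without that array was thus fixed in advance. Of 34 measured, 32 were positive with a median of 0.85, and 9 were higher at an unadjusted p under 0.05, as were 3.15% of all genes. Without cow C, 29 were positive with a median of 0.21 and none reached that level. Without cows B and C, an alternative chosen after seeing the data, the median was 0.03. SPARC, for a collagen-binding protein of the matrix, was 9.70, 11.05, 13.47, 9.67 and 9.65 in LP cows against 9.53, 9.89, 9.28, 9.55 and 9.37 in AP cows (1.18, and 0.49 without cow C). COL4A2, of basement membrane collagen, differed by 0.42 and 0.20, and COL1A1 by 1.49 and 0.32.

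**Figure D5:**
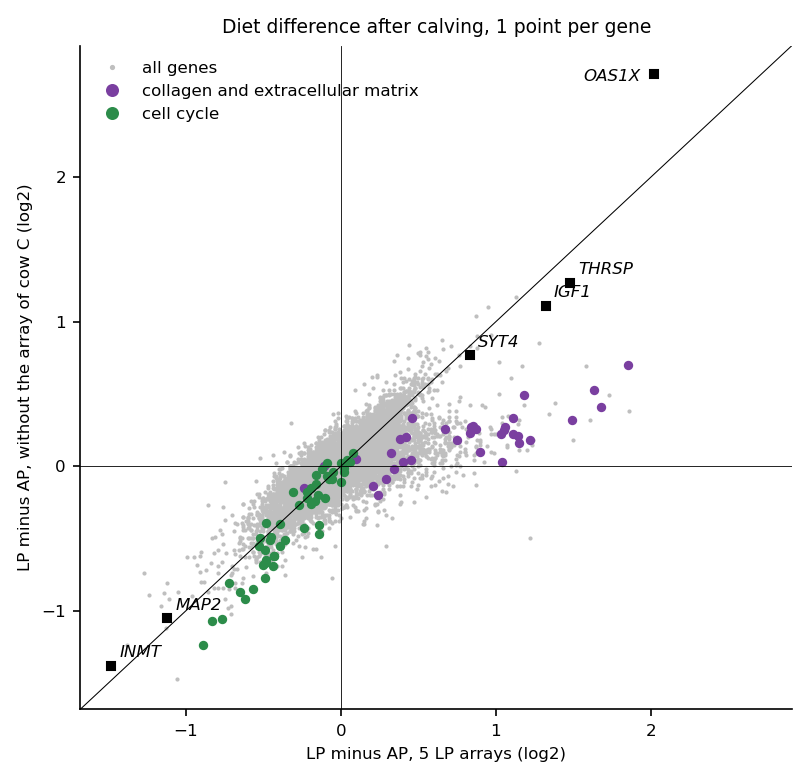
LP minus AP difference of each of the 20011 genes after calving, with all 5 LP arrays on the horizontal axis and without the array of cow C on the vertical axis (log2), with the line of equal values. Collagen and matrix genes lie far below the line on the right, and SYT4, IGF1, THRSP, MAP2 and INMT lie close to it. The array of cow C was chosen by its COL1A1 signal, which fixed the place of the collagen genes in advance.

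No gene passed the test of whether the diet difference after calving was unlike the one before it (0% of those tested), by limma. For that change 559 genes had an unadjusted p under 0.05 by limma, where 5% of the genes tested is 1001. The median standard error of that change was 0.198, against 0.14 for the postpartum difference. The fit of 4 group means sets the ratio of these errors, so they do not measure how evenly the cows changed. That fit did not pair the arrays of a cow, and 5 cows per diet limit the precision. At least 2-fold differences after calving were seen in 47 genes higher and 12 lower in LP, and without the array of cow C in 6 higher and 10 lower. Of the genes apart after calving, 2 differed at least 2-fold, MAP2 and SERPINE2.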

How the data were processed

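Liver RNA of 10 cows was hybridised to 20 single-colour Affymetrix arrays, 1 per cow and time. The authors deposited log2 signals for 24333 probe sets. The deposited workbook names SST-RMA, and the submitters' processing notes name RMA and Affymetrix Expression Console 1.4. RMA brings all arrays to nearly 1 distribution, which hides any shift shared by all genes. The 3912 probe sets without a symbol were left out of the gene tests, and of the 386 symbols with several probe sets the brightest was used, without a filter on dim genes. The deposited comparison of the times was not used. Only to check names, symbols were set against RefSeq assembly ARS-UCD2.0, where 14476 matched through an accession, 3663 through the symbol, 79 through a synonym and 1793 not at all.

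Differences were tested two-sided with limma 3.58.1 in R 4.3.3 on 4 group means over 20 arrays, and again over 19 without the array of cow C, adjusted by Benjamini-Hochberg across the 20011 genes, at a threshold of 0.05. The test was also run on simulated normal values with known differences. These held no pairing of arrays by cow and no outlying array, so that check does not cover either feature of the data. The labels do not name animals. A number in the titles that occurs at both times within 1 diet was taken to mark a cow, which pairs its 2 arrays, and the residuals of such arrays had a median correlation of 0.167 across genes (0.0719 to 0.312, over 0.1 in 8 of 10 cows). Each cow had 1 diet, so a fixed term for the cow would leave no diet difference to test at 1 time. The change of the difference across calving lies within cows, but its fit did not use the pairing either. The cow entered only as a random block, in an alternative. The 44 lists of genes were described by counts and medians with no test. Named genes were those that passed, those of lowest p per direction with and without cow C, the largest differences among genes whose arrays did not overlap, up to 2 per direction of each list, and genes set by the study question. Not every gene selected in this way is printed. The comparison, the lists and the rule were chosen with earlier results of these data known.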

Additional observations from a re-analysis of the deposited data

Results flagged for a closer look

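In groups of 5 arrays, a value was singled out when its gap to the nearest other array exceeded 0.71 of the group's range, which chance does in about 1 of 20 groups. Of 270 groups tested, over 91 genes and 44 lists, 31 were singled out, and 20 of these were the LP array of cow C. Its high values were 6.80 for SLC43A3, 7.79 for SERPINE2, 7.39 for F3, 7.03 for MMP9, 6.26 for UCK2, 11.12 for LPL, 9.21 for PKM, 6.26 for VDR and 7.94 for COL4A2. Its low values were 8.35 for TDH, 8.15 for CYP4A11, 9.46 for MAT1A and 8.07 for TFRC, the transferrin receptor. As list means, cow C was high for adipocyte (8.80), fibroblast and stellate (10.42), skeletal muscle (7.33), mesothelial (5.99) and collagen and matrix genes (10.29), and low for oxidative phosphorylation (8.08) and complement and coagulation (10.56). The 1 other LP value was the low vitamin D and calcium list mean of cow E, 6.98.

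The 10 AP values were spread over the 5 cows. Cow F was low for INPP5D (6.77) and for B and plasma cell markers (5.50). Cow G was high for LIPA, lysosomal acid lipase (9.51), and PSMB8 (7.12). Cow H was low for XPR1 (7.35) and for GPX3, the plasma glutathione peroxidase (8.81), and high for the mean of cholesterol synthesis (9.73). Cow I was low for PFKP (5.70), and cow J was low for NDST4 (2.73) and high for MX2 (6.75).

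Among the 3912 probe sets without a symbol, which the gene tests did not use, 206 had an unadjusted p under 0.05 by limma. Over all 24333 probe sets the count was 1316, and no probe set without a symbol passed. The lowest p was that of probe set 12913783, with 3.42, 3.40, 3.83, 3.51 and 3.58 in LP cows A to E against 2.55, 1.92, 1.79, 1.93 and 1.95 in AP cows F to J. The difference was 1.52 (SE 0.276, limma adjusted p = 0.242 over all probe sets), at a very dim signal. Before calving the LP and AP arrays overlapped, at 2.57 to 4.75 in LP cows and 2.58 to 3.61 in AP cows.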

How the results depend on the processing

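SYT4 passed in 21 of 24 alternatives, with a difference between 0.75 and 0.88, and no other of the 91 named genes passed in any. With the cow as a random replicate block, 1 gene passed as before, with 1124 at an unadjusted p under 0.05, and the block changed no call. The count of passing genes was 0 with the 10 postpartum arrays alone and without the LP arrays of cows B and C, the last an alternative chosen after seeing the data. It ranged from 0 to 1 when each array was left out in turn, 0 being without AP cow H. All these fits use fewer arrays. AP cow H had the lowest SYT4 signal of the AP cows after calving, 7.41 against 7.67 to 7.81 in the others. The cause of the lost calls was not tested. At an unadjusted p under 0.05, the count was 730 with the postpartum arrays alone, 744 without cows B and C, 528 when genes below the median signal were left out, which tests fewer genes, and 874 to 1782 when each array was left out in turn, the highest without LP cow E. Adding a 1.5-fold limit to the unadjusted p gave 162 genes in place of an adjusted p. The difference of COL1A1 was -0.12 without cows B and C. Of the 44 list medians, 3 changed sign after quantile normalization and 2 after median centring, none of them over 0.03 in size with all arrays. The diet by time count was 0 in every alternative run, and the antepartum count 1.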

Other observations

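Values of 3 genes outside the rule for named genes, chosen after their values were seen, varied widely among cows of 1 diet. OAS1X, an interferon-stimulated gene of the oligoadenylate synthetase family, was 10.23, 4.02, 4.24, 10.34 and 6.12 in LP cows A to E after calving, against 4.42, 5.58, 5.26, 4.89 and 4.69 in AP cows F to J. Before calving it was 9.82, 3.46, 4.23, 9.16 and 4.80 in the LP cows and 4.50 to 5.14 in the AP cows, so cows A and D were high at both times. GPX3 was 7.94, 8.52, 9.74, 11.00 and 11.74 in LP cows after calving, against 11.61, 11.30, 8.81, 11.14 and 11.74 in AP cows. SLC13A5, the citrate importer of hepatocytes, was 8.53, 6.55, 8.02, 10.35 and 9.61 in LP cows, against 10.21, 8.98, 9.71, 10.26 and 10.81 in AP cows. Cows A, B and C, which had the highest IGF1, lay below all AP cows for SLC13A5, and cows D and E did not.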
